A study of Mus musculus with 12 samples.

Results

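Schwann cells wrap the axons of peripheral nerve, and a piece of whole muscle carries some of them in its intramuscular nerve branches and at the nerve endings. Transcripts of 7 genes that mark these cells or their myelin sheath were followed here: the transcription factors Sox10 and Egr2, the sheath and membrane proteins Mbp, Prx, Mag and Pmp22, and the calcium-binding protein S100b. They were taken by symbol from a table of 24421 gene entries, in which all 7 were present, and all 7 passed the filter on low counts that left 13937 genes for testing.

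The tissue was the tibialis anterior, a hindlimb muscle, of 12 male mice aged 4 months. One group held 6 C57Bl/6 mice, called WT, for which the labels name no mutant allele. The other held 6 mdx/mTR mice, in which mdx is a disrupted allele of the dystrophin gene Dmd and mTR stands for the mouse telomerase RNA gene; the labels give neither the zygosity nor the generation of breeding. Total RNA of each muscle was sequenced and counted per gene, and nothing in the labels links mice of the same number across groups.

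Library totals ran from 35136327 to 60330410 counts. Dmd, the gene that checks the labels, stood at 228 to 244 CPM in WT and at 35.2 to 56.4 in mdx/mTR, without overlap; CPM is the count per 1e6 counts of a library, whose size was adjusted by TMM, a factor that sets aside the most changed genes. The 10 muscle fibre markers, among them Acta1 and Myh4, had a summed level of 201070 to 225540 CPM in WT and 154810 to 210890 in mdx/mTR. Because whole muscle was used, fewer Schwann cells, less RNA per Schwann cell and a larger share of RNA from other cells cannot be told apart.

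As background, Sox10 is required for the Schwann cell lineage and acts with Egr2, also called Krox20, to switch on the genes of the myelin sheath when a cell commits to an axon. Mbp holds the inner faces of compact myelin together, Pmp22 is a membrane protein of compact myelin whose gene dose causes inherited neuropathy, Mag sits on the membrane that faces the axon, and Prx (periaxin) links the outermost membrane to the basal lamina through a complex with the dystrophin relative Drp2. Schwann cells also carry a dystroglycan complex of their own, with a short dystrophin product of the Dmd gene.

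Promoter sequence of 5 of the 7 genes (Pmp22, S100b, Mag, Prx and Egr2) was used, with no window of Sox10 or Mbp. Of the 5, Prx and Mag fell in mdx/mTR. To show what lies upstream of those 2, the 250 bases before a listed start of each are printed, 5′ to 3′ on the strand of the gene, from RefSeq on GRCm38.p6. Prx lies on the plus strand at chr7:27499074-27499323 and Mag on the minus strand at chr7:30914864-30915113. Capitals mark a SOX-type hexamer, of which Mag has 1 and Prx none; the search is described after the sequences.
Prx: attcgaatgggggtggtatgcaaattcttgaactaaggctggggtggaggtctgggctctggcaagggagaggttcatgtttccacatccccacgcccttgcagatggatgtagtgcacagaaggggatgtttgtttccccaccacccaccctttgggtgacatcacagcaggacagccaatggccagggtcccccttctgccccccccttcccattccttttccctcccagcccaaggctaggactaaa
Mag: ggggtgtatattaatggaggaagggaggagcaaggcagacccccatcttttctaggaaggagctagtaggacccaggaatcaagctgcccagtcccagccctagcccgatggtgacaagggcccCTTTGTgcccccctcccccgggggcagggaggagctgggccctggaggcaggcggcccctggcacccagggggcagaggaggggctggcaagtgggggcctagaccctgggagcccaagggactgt

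The hexamers ACAAAG and ACAATG, cores that SOX factors bind, were searched on both strands in windows from 250 bases before to 50 after each start. They occurred in 2 of the 14 windows of the 5 genes, both overlapping windows of Mag that share a single hexamer, against 28.6% of 32851 windows of all genes. The EGR-type motifs GCGTGGGCG and GCGGGGGCG occurred in 0 of the 14 windows, against 0.612% and 2.91% of all windows. These are matches of letters and say nothing of binding.

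Of the 7 genes, 4 were lower in mdx/mTR at an adjusted p below 0.05 (edgeR quasi-likelihood test, Benjamini-Hochberg over all 13937 genes) and none was higher. These were Sox10, Prx, Mbp and Mag, at 54.3% to 68.8% of the WT level. Pmp22, S100b and Egr2 did not pass. Across all genes tested, 48.3% passed in either direction, 23.4% as lower and 25.0% as higher, so a call in itself is common in this comparison. Of the calls 51.6% were higher, and 78.2% when libraries were scaled by their totals alone. The median log2 fold change of the 7 was -0.54, beside 0.01 over all genes. The groups did not overlap for Sox10 and Prx, both lower, which held for 12.6% of all genes. In the authors' deposited table the same 4 genes are below an adjusted p of 0.05, with Mag closest to it at 0.032.

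**Figure D1:**
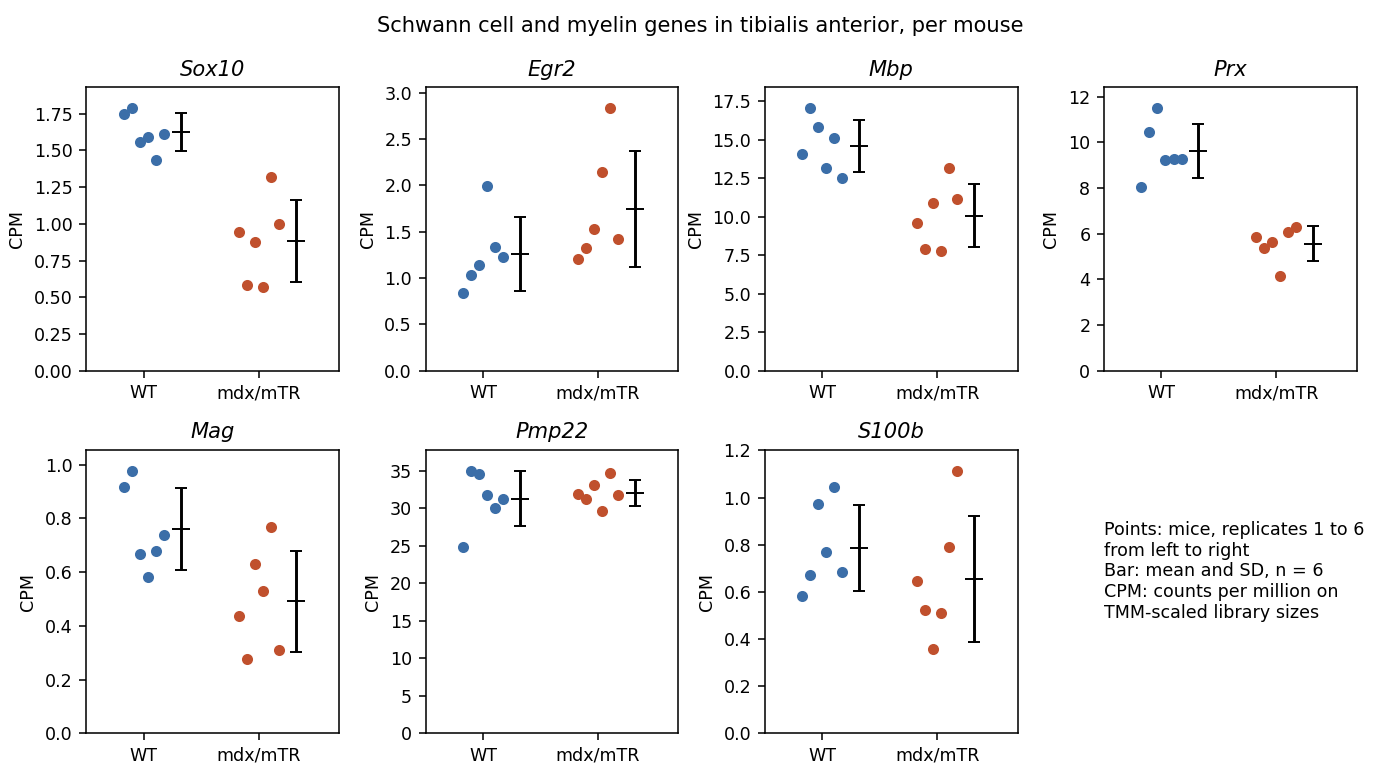
CPM of the 7 genes in each mouse (y axis, from 0), with WT in blue, mdx/mTR in orange, and the mean with SD of 6 mice as a black bar. All 6 mdx/mTR mice lie below all 6 WT mice for Sox10 and Prx, while Pmp22 lies between 24.9 and 35.01 CPM in both groups.

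Sox10 carried the largest fall of the 7. In WT it had its lowest value of 1.44 CPM in replicate 5, a median of 1.60 and its highest of 1.79 CPM in replicate 2. In mdx/mTR it ran from 0.572 CPM in replicate 4, through a median of 0.908, to 1.32 CPM in replicate 5. Every mdx/mTR mouse was below every WT mouse. The coefficient of variation was 31.9% in mdx/mTR and 7.96% in WT. Counting error alone gives WT replicate 1 a 95% interval of 1.345 to 2.24 CPM, which covers all WT values. The WT figure therefore does not measure a spread between mice, and the 2 figures were not compared by a test. The fitted log2 fold change was -0.88 ± 0.19 (SE; edgeR adjusted p 0.00216), or 54.3% of WT with an approximate 95% interval, from the SE, of 41.7% to 70.7%. The gene lies at chr15:79154908-79165240 on the minus strand (GENCODE M21, GRCm38) and had only 28 to 64 counts in a library.

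Egr2, the second factor, did not follow Sox10. Its WT values ran from 0.833 CPM (median 1.18) to 1.99 CPM, and its mdx/mTR values from 1.20 CPM (median 1.48) to 2.83 CPM. The groups overlapped, and 2 mdx/mTR mice, replicates 4 and 5, were above all WT mice. The log2 fold change was 0.46 ± 0.25 (SE; edgeR adjusted p 0.138), with an interval of 98.5% to 192% of WT that reaches from no change to nearly a doubling. Without WT replicate 4, the highest WT mouse, the value was 0.64 and passed (adjusted p 0.0426). Without mdx/mTR replicate 5, the highest mdx/mTR mouse, it was 0.26 (edgeR adjusted p 0.344). Of the 12 fits without 1 mouse, 11 did not pass. Egr2 is also an immediate early gene and is expressed in macrophages, and it lies at chr10:67535475-67542188.

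Among the sheath proteins, Prx had the clearest separation. WT mice had 8.03 to 11.5 CPM (median 9.27) and mdx/mTR mice 4.13 to 6.29 CPM (median 5.75), with a gap between the groups. Its log2 fold change was -0.79 ± 0.11 (SE; edgeR adjusted p 6.4e-05), which is 57.9% of WT with an interval of 49.96% to 67.01%. The gene lies at chr7:27499324-27520214 and overlaps an antisense gene, Gm15541; whether counting used strand is not given in the sources used here, so reads of the pair cannot be told apart. A share of 2.49% of the 50-base stretches of its longest coding transcript also occurs in other genes.

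Mbp had a smaller fitted fall. It ran from 12.5 CPM (median 14.6) to 17.03 CPM in WT and from 7.79 CPM (median 10.2) to 13.1 CPM in mdx/mTR. Of the mdx/mTR mice, 5 were below all WT mice, and the exception was replicate 5. The log2 fold change was -0.54 ± 0.13 (SE; edgeR adjusted p 0.00309), or 68.8% of WT (interval 58.1% to 81.6%). The locus also encodes golli transcripts, which are made outside myelin, and a count per gene does not separate them from the myelin forms.

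Mag was the scarcest, with 18 to 36 counts in a library. In WT it ran from 0.584 CPM (median 0.709) to 0.977 CPM, and in mdx/mTR from 0.276 CPM (median 0.484) to 0.767 CPM. The groups overlapped, with 4 mdx/mTR mice below all WT mice. Its log2 fold change of -0.65 ± 0.25 (SE) just passed (edgeR adjusted p 0.0476), and the interval was 45.03% to 89.99% of WT. The call was close to the threshold. It held without WT replicate 4, mdx/mTR replicate 3 or mdx/mTR replicate 5. It was lost without any 1 of the other 9, where the edgeR adjusted p was 0.0589 to 0.0975. In some of these fits the fitted fall was larger than with all mice, and in others smaller. Mag lies at chr7:30899176-30914873 on the minus strand.

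Pmp22 stayed level. WT mice had 24.9 to 35.01 CPM (median 31.5) and mdx/mTR mice 29.7 to 34.7 CPM (median 31.8), so that the mdx/mTR range lay inside that of WT. The log2 fold change was 0.04 ± 0.07 (SE; edgeR adjusted p 0.709), and its interval of 92.8% to 113% of WT excludes a fall of the size fitted for Sox10, Prx or Mbp. With 895 to 2034 counts in a library it was the best measured of the 7. Its gene lies at chr11:63128982-63159547, and it is transcribed in fibroblasts and other cells beside Schwann cells.

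S100b, a widely used Schwann cell antigen, was low in these muscles. It ran from 0.583 CPM (median 0.727) to 1.04 CPM in WT and from 0.355 CPM (median 0.583) to 1.11 CPM in mdx/mTR, where replicate 6 was above all WT mice and 3 others were below them. The log2 fold change was -0.25 ± 0.26 (SE; edgeR adjusted p 0.447), with an interval of 59.4% to 119% of WT. At 13 to 68 counts in a library, a fall as large as that of Mbp lies within this interval. The gene, at chr10:76253853-76261159, overlaps Dip2a on the opposite strand.

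Levels were compared between genes only per length of the longest coding transcript. In WT the mean level was 17.2 CPM per kilobase for Pmp22, 3.04 for Mbp, 1.77 for Prx, 0.584 for Sox10, 0.530 for S100b, 0.425 for Egr2 and 0.312 for Mag. The ranges over the 6 WT mice did not overlap between Pmp22, Mbp, Prx and the rest, but those of Sox10, S100b and Egr2 overlapped with one another, as did those of S100b, Egr2 and Mag. In mdx/mTR the means were 17.6 for Pmp22, 2.10 for Mbp, 1.02 for Prx and 0.588 for Egr2. They were 0.442 for S100b, 0.317 for Sox10 and 0.202 for Mag. The ranges of Egr2, S100b and Sox10 over the mdx/mTR mice overlapped with one another. So did those of Prx and Egr2, and that of Mag with those of S100b and Sox10. With the union of all exons as length, the WT levels of Mbp and Prx were 1.72 and 1.73 CPM per kilobase, and their order is therefore not settled.

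Counts were also set against the Sox10 count of the same mouse. Mbp had 7.76 to 10.5 counts per Sox10 count in WT and 9.94 to 13.6 in mdx/mTR. Prx had 4.59 to 7.39 and 4.61 to 9.24, and Mag 0.367 to 0.547 and 0.311 to 0.929. These ratios overlapped between the groups.

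Ratios to Sox10 that did not overlap were those of Pmp22, at 14.2 to 22.2 counts per Sox10 count in WT and 26.3 to 53.5 in mdx/mTR, and of Egr2, at 0.476 to 1.25 and 1.28 to 3.75. Erbb3, the receptor through which Schwann cells sense axonal neuregulin, had 2.76 to 4.45 in WT and 6.16 to 13.8 in mdx/mTR. S100b overlapped, at 0.333 to 0.727 and 0.406 to 1.11. A ratio moves with the Sox10 count itself, which was small, and shows unequal change of 2 genes and not that either was constant. Sox10 itself separated the groups, so a gene that stayed level, such as Pmp22, can separate by this ratio. The share of all genes whose ratio to Sox10 separates was not computed. No test was made of these ratios.

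**Figure D2:**
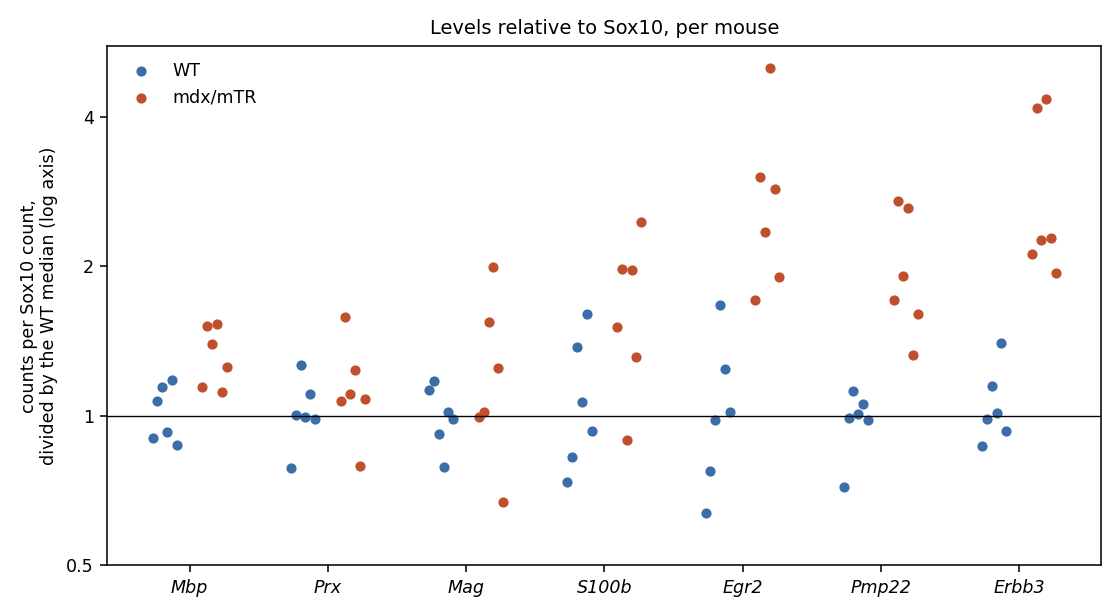
Counts per Sox10 count in each mouse, divided by the WT median of that gene (log axis), for the 6 other genes and for Erbb3. Mbp, Prx, Mag and S100b overlap between WT (blue) and mdx/mTR (orange), whereas Egr2, Pmp22 and Erbb3 do not.

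Mice differed from one another within mdx/mTR. Replicate 5 had the highest mdx/mTR level of Sox10, Mbp, Mag, Pmp22 and Egr2, and replicate 4 the lowest of Sox10, Mbp, Prx and Pmp22. Over the 6 mdx/mTR mice, Mbp and Sox10 went together, with r = 0.963 by Pearson (p 0.00694, exact permutation) and rho = 0.943 by Spearman (p 0.0167, exact permutation); r was 0.838 without the 2 mice farthest from the median of Mbp. Adjusted over the 42 relations computed, the p was 0.214 for r and 0.233 for rho, and none of the 42 passed by r. In WT the same test over 21 pairs gave a median r of 0.16, against 0.53 in mdx/mTR; that difference was not tested.

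The genes whose pattern was most like that of Sox10, Mag, Mbp and Prx were sought among 12202 genes of at least 1 CPM, by Pearson correlation over the 12 libraries after the group means were taken out. Among the 5 most alike were Rps6ka1 (r 0.90), Bcr (0.89), Srrt (0.89) and Srgap2 (0.88). The libraries share their depth and composition across all these genes, and the values are a description. Of these 4, Srgap2 was higher in mdx/mTR, and the other 3 did not pass. Bcr and Srrt passed as higher with upper quartile scaling and with library totals, Bcr also without WT replicate 2 or without mdx/mTR replicate 2, and Rps6ka1 changed sign with library totals.

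The rest of the myelin sheath was read from 15 further structural genes, of which 14 could be tested. Of these, 9 were lower, none was higher and 5 did not pass, beside 23.4% lower and 25.0% higher over all genes. The median log2 fold change was -0.82. Cldn19, a tight junction protein of myelin, fell by 1.16 on the log2 scale (edgeR adjusted p 4.4e-05), and Cadm4, an adhesion molecule that faces the axon, by 1.18 (adjusted p 7.2e-05).

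Among the others that fell were Gjc3, Ncmap, Mal, Ugt8a and Pllp, with log2 fold changes between -1.21 (Gjc3) and -0.48 (Pllp). The groups did not overlap for 7 of the 14 genes, all of them lower, which held for 12.6% of all genes. Of the 5 that did not pass, Pmp2 and Fa2h had negative values (-0.78 and -0.68) and Cnp, Drp2 and Gldn positive ones (0.15, 0.20 and 0.29). Drp2, the partner of Prx, went from 7.34 ± 0.742 to 8.46 ± 1.78 CPM (SD, n = 6 each; edgeR adjusted p 0.193). Pllp did not pass with upper quartile scaling or with library totals, and with library totals Cnp passed as higher (0.31, adjusted p 0.0219).

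Of 17 regulators, receptors and signals of the lineage 15 were tested, and 4 were higher, 3 lower and 8 did not pass, a share of calls close to the 25.0% higher and 23.4% lower over all genes. The co-receptors for neuregulin both rose: Erbb2 went from 4.96 ± 0.547 to 10.2 ± 1.999 CPM, by 1.04 ± 0.12 (SE, log2; edgeR adjusted p 2.1e-05), and Erbb3 from 5.39 ± 0.618 to 7.32 ± 1.34 CPM, by 0.44 ± 0.12 (SE, log2; adjusted p 0.00767), each level with its SD over 6 mice. Nab2, which represses EGR factors and is itself induced by them, rose by 1.37 (adjusted p 3.8e-05), and the sodium channel gene Scn7a, found in non-myelinating Schwann cells, by 0.73 (adjusted p 1.2e-04). Those that fell were Gpr17 (-0.60), Cdh19 (-0.50) and Yy1 (-0.19), of which Cdh19 and Yy1 did not pass with library totals, nor Cdh19 with upper quartile scaling; Tead1 passed as higher with library totals (0.22). Nrg1 itself had at most 3 counts in a library and was not tested.

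Genes of immature or injury-response Schwann cells numbered 14, and 8 were tested. Of these 5 were higher and 2 lower, beside 25.0% higher and 23.4% lower over all genes. Their median log2 fold change was 1.02, and with no filter on low counts the median over all 14 was -0.16. Ngfr, the low-affinity neurotrophin receptor, rose from 2.18 ± 0.737 to 4.06 ± 0.582 CPM (SD, n = 6 each), by 0.90 ± 0.20 (SE, log2; edgeR adjusted p 0.00202). Ncam1, which regenerating muscle fibres and satellite cells also express, rose by 1.82 (adjusted p 2.4e-05), and Runx2 by 1.78 (adjusted p 9.4e-06). Gdnf and Cdh2 rose as well, while Jun (-0.56) and L1cam (-0.40) fell, calls that library totals did not keep. The injury markers Sox2, Gfap, Gap43, Shh, Artn and Olig1 had at most 15 counts in a library and were not tested.

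**Figure D3:**
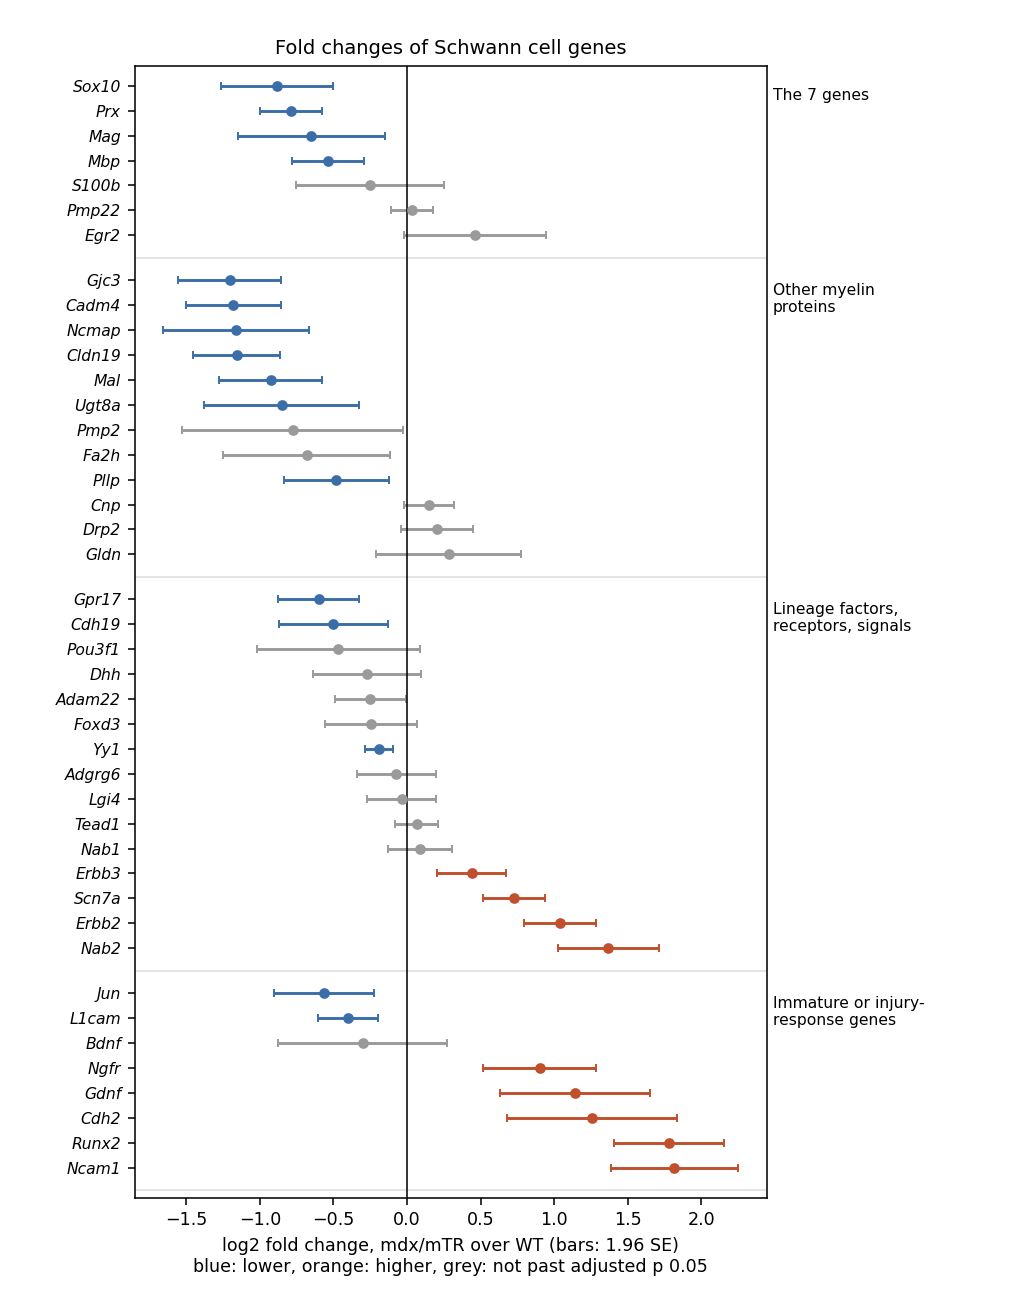
Fold changes between the groups (x axis, log2, mdx/mTR relative to WT, bars an approximate 95% interval) for the 7 genes and for tested genes of 3 related lists; blue is lower, orange higher and grey not past an adjusted p of 0.05. Genes of the sheath lie mostly to the left of 0, and Erbb2, Erbb3, Ngfr, Ncam1 and Runx2 lie to the right.

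Relatives of the 3 genes that did not pass were examined beside them, where 25.0% of all genes were higher and 23.4% lower. Pmp22 has sequence relatives in the epithelial membrane proteins, and all 5 relatives listed changed: Emp1 (1.32, edgeR adjusted p 2.5e-05), Emp2 (0.68, adjusted p 2.0e-05), Emp3 and Tmem47 rose, and Perp fell (-1.03, adjusted p 0.00198). Emp1 went from 32.3 ± 6.04 to 80.6 ± 20.2 CPM (SD, n = 6 each). Among the EGR factors, Egr1 (-0.26, adjusted p 0.369) and Egr3 (0.01, adjusted p 0.979) did not pass (Egr3 changes sign when some single mice are left out), and Egr4 had 0 counts in every library. Of 9 other S100 genes, 8 rose, among them S100a4 (2.40, adjusted p 3.1e-05), S100a13 (0.88, adjusted p 1.4e-05) and S100a16 (0.33, adjusted p 1.8e-04), and S100a9 did not pass. The signs of the called relatives were the same under all 3 other scalings.

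**Figure D4:**
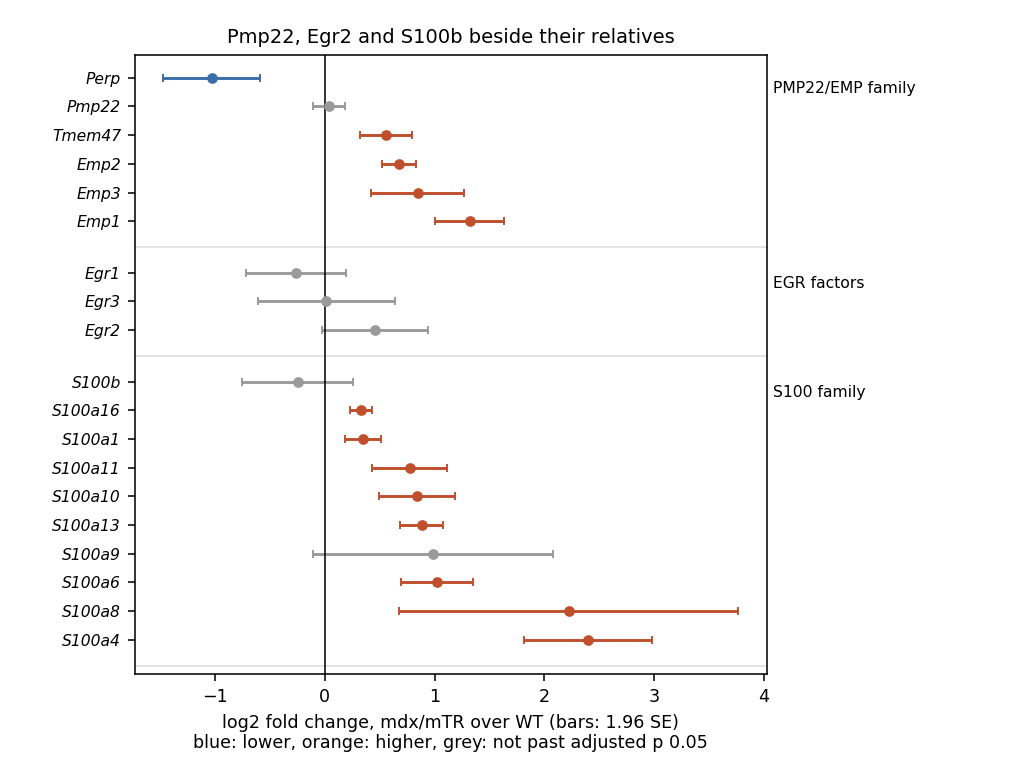
Fold changes between the groups (x axis, log2, mdx/mTR relative to WT, bars an approximate 95% interval) for Pmp22, Egr2 and S100b (grey) and the tested relatives of each. All 8 called S100 relatives and 4 of the 5 PMP22 relatives lie to the right of 0.

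Markers of other cells moved with the groups. The counts of markers called stand beside 25.0% of all genes called higher and 23.4% called lower. The 12 macrophage markers were all higher, with a summed level of 101 to 173 CPM in WT and 295 to 815 in mdx/mTR, and 0 of the 12 were at 0; Lyz2 rose by 2.11 and C1qa by 1.74. Of 10 fibroblast markers, 8 were higher, with sums of 1184 to 2204 CPM in WT and 2913 to 5877 in mdx/mTR; Col3a1 rose by 1.67 and Pdgfra by 0.91. Among the mdx/mTR mice, replicate 5 had the highest macrophage and fibroblast sums, and it was also the one with the highest Egr2, Pmp22, Sox10, Mbp and Mag. The part of these cells in the levels of the 7 genes, or of the lineage and injury-response genes listed above, was not tested.

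Most markers of oligodendrocytes and of melanocytes, which also use Sox10, were near the floor. The part of other cells in the Mbp count, which includes golli transcripts, was not tested. Of 6 oligodendrocyte markers, Mobp, Olig2 and Opalin had 0 counts in every library and Mog at most 5; the sum of the list was 0.444 to 1.22 CPM in WT and 0.453 to 1.17 in mdx/mTR, most of it Sox8, which did not pass (log2 fold change 0.06, edgeR adjusted p 0.911; it changed sign without some single mice). Of the melanocyte markers, Tyr had 0 counts, Tyrp1, Mlana and Dct at most 5, and Pmel at most 16. Mitf, which muscle cells also express, made up most of that list, whose sum was 23.004 to 25.6 CPM in WT and 18.4 to 22.4 in mdx/mTR, and fell by 0.25 (edgeR adjusted p 0.00359), a call that library totals did not keep.

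Neighbours of the Schwann cell in the nerve gave mixed values. Of 6 perineurial markers 5 were tested: Itgb4 fell by 0.79 (edgeR adjusted p 5.3e-04), Cldn1 and Tenm2 fell, Ntn4 rose by 0.53 (adjusted p 0.00337), and Slc2a1 did not pass (0.32, adjusted p 0.0503), though several other settings and left-out mice put it past the threshold as higher. Itgb4 is also the laminin-binding integrin chain of myelinating Schwann cells. The summed level of the list was 26.4 to 34.4 CPM in WT and 25.7 to 35.6 in mdx/mTR. Axonal transcripts were scarce, as the cell bodies of motor neurons lie outside the muscle: Chat had 0 counts and Nefl, Nefm and Snap25 at most 3 in a library. Stmn2 fell from 4.43 ± 0.793 to 2.41 ± 0.346 CPM (SD, n = 6 each), a log2 change of -0.87 ± 0.13 (SE; edgeR adjusted p 1.4e-04), while Uchl1 and Tubb3 rose. Tubb3 had at most 45 counts in a library (edgeR adjusted p 0.0373). With limma-voom, and without some single mice, only 1 gene of the axonal list passed as higher. The sum of the axonal list was 5.12 to 7.70 CPM in WT and 5.52 to 7.86 in mdx/mTR.

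Endothelial markers shared the direction of the sheath genes, 5 of 8 being lower and none higher, with Tek at -0.53 (edgeR adjusted p 4.3e-06) and Cdh5 not passing (-0.23, adjusted p 0.0642). Their sum was 554 to 737 CPM in WT and 448 to 570 in mdx/mTR, and Kdr and Tie1 did not pass with library totals. Of 5 tested adipocyte markers, Car3 and Fabp4 were lower, neither of them with library totals, and the other 3 did not pass. Satellite cell genes were higher in 4 of 6, among them Myog (2.46, adjusted p 1.7e-05), and Des did not pass (0.15, adjusted p 0.0539), though it did with other scalings. Of the T cell markers 2 were tested: Cd4 rose by 2.84, and Cd2 did not pass. Muscle fibre markers were lower in 2 of 10 and higher in 1, with Myh4 at -0.62 (adjusted p 0.00267). Periaxin is also made in some endothelial cells, and whether the endothelial markers bear on the fall of Prx was not tested.

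Scaling and the choice of mice were varied for each of the 7 genes. Sox10, Prx and Mbp stayed negative and past the threshold in each of the 12 fits without 1 mouse, with log2 fold changes of -1.03 to -0.78, -0.84 to -0.72 and -0.63 to -0.48. With library totals alone, a scaling that moves the median of all genes by 0.16, they were -0.72, -0.63 and -0.38 and still passed, whereas Mag did not (-0.49, edgeR adjusted p 0.145).

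**Figure D5:**
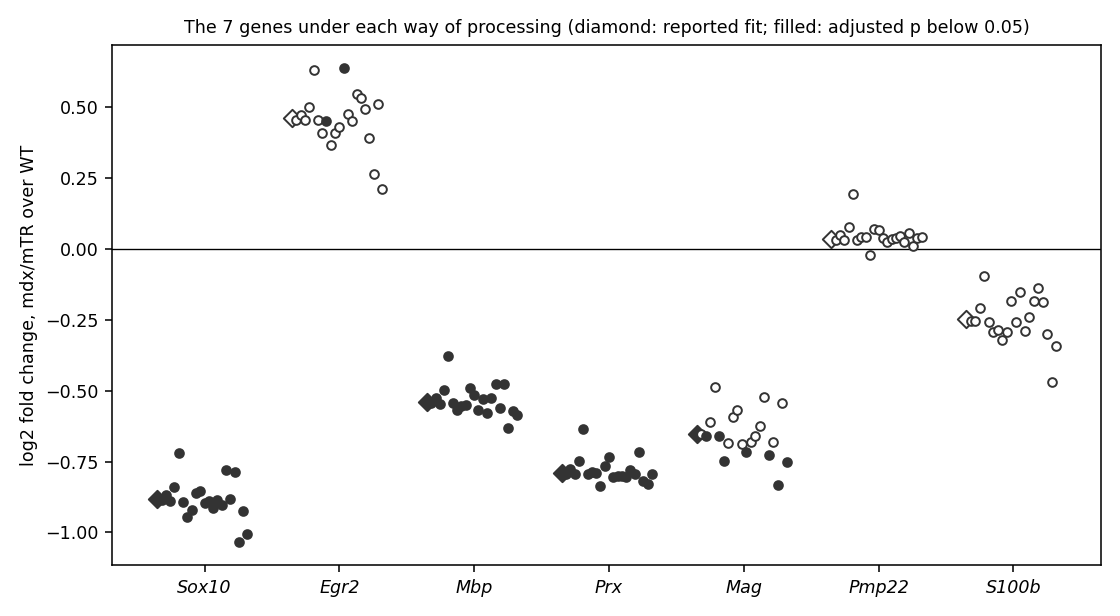
Log2 fold change of each of the 7 genes (y axis) in the reported fit (diamond) and in each alternative (circles), filled where the adjusted p was below 0.05. Sox10, Mbp and Prx are filled throughout, Mag is filled in some, and Pmp22 and S100b in none.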

How the data were processed

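Per the submitters' processing notes, FastQC, STAR, DESeq2 and the build mm10 were used, with no versions; the counter, annotation and strand handling are not given in the sources used here. The authors deposited whole-number counts per gene symbol, one column per mouse; 0 columns were left unmatched. Per the file headers, a results table the authors deposited holds the signal averaged over libraries (normalized counts), the log2 fold change and its error, a score (the test statistic) and p-values, raw and adjusted.

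Counts were tested with edgeR 4.0.16 in R 4.3.3: filterByExpr, TMM scaling, a quasi-likelihood model with group as its only term, and Benjamini-Hochberg adjustment at 0.05. The standard error is the log2 fold change divided by the square root of F. Correlations used log2(CPM + 0.5) and exact permutations. Python 3.11.15, pandas 2.3.3, numpy 2.4.6 and matplotlib 3.10.9 were used. On simulated counts for 13937 genes of this comparison, edgeR recovered 85.9% of genes changed by 1 on the log2 scale. It recovered all changed by 2, with 10 false calls. Recovery of smaller changes, such as those fitted for Sox10, Prx, Mag and Mbp (-0.88 to -0.54), was not measured. The share of genes changed in the simulation is not given here. Its false calls are therefore no estimate for the data, where 48.3% of genes passed. Alternatives were other filters and scalings, DESeq2 1.42.0, limma-voom (limma 3.58.1), a replicate block, each mouse left out and a threshold of 0.01; leaving out 2 mice together and the exon-union length were chosen after seeing the data.

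A floor of 3 counts corresponds to 0.0461 to 0.0838 CPM and covers counting error only, as reads carried no molecular identifiers. Replicate pairs differed by more than sampling noise (chi-square per degree of freedom 8.87 to 116), so none was counted as a duplicate. Each sample is taken as 1 mouse, which the labels do not state; p-values measure only the spread between these samples, which may be technical.

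The 7 genes and all lists were chosen with earlier results of these data known, so lists are given by counts and medians. The named genes are the 7, Dmd, the 3 smallest p-values of each of 7 pathway lists, the most abundant and the smallest p-value of each of 11 marker lists, and the 5 genes most alike in pattern. A few genes that this rule selects are not reported here, though counts and medians of lists include them. Further genes named in the text were picked with their values in view.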

Additional observations from a re-analysis of the deposited data

Results flagged for a closer look

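For each named gene and each group of 6 mice, the most extreme mouse was compared with its nearest neighbour by Dixon's 95% criterion (gap over range). Of 100 such groups, 7 exceeded the criterion, where chance gives about 1 in 20, or 5. None of the 7 Schwann cell and myelin genes was among them. WT replicate 2 was highest for Fdft1 (55.0 CPM against 42.7 to 45.6 in the other WT mice), Cdh5 (214 against 146 to 168 CPM) and Bcr (9.04 against 6.57 to 6.87 CPM). Among mdx/mTR mice, replicate 5 was highest for Srebf2 (38.5 against 24.6 to 27.4 CPM) and S100a4 (50.2 against 14.2 to 27.2 CPM). WT replicate 6 was highest for S100a4 (7.14 against 3.33 to 4.72 CPM), and WT replicate 3 for Stmn2 (5.91 against 3.61 to 4.47 CPM).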

How the results depend on the processing

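Scaling by library totals gave 5596 higher and 1560 lower genes, a share of 78.2% higher among calls against 51.6% with TMM. Leaving out each mouse in turn gave 6125 to 6816 calls over all genes, 3163 to 3562 higher and 2950 to 3254 lower, and among the 7 genes 3 to 5 calls, 3 to 4 lower and 0 to 1 higher. Mag did not pass with no filter on low counts (-0.65, edgeR adjusted p 0.0634), with upper quartile scaling (-0.61, adjusted p 0.0628), with library totals (-0.49) or with the replicate block (-0.69, adjusted p 0.0777), and ran from -0.83 to -0.52 without 1 mouse. A minimum of 1 CPM in 6 libraries left Mag and S100b untested. Egr2 passed as higher with the replicate block (0.45, adjusted p 0.0448), which raised the number of higher members from 0 to 1, and ran from 0.26 to 0.64 without 1 mouse. Pmp22 ran from -0.0232 to 0.0696, negative without WT replicate 1 alone. Without WT replicate 2 and mdx/mTR replicate 5 together, Sox10, Prx, Mbp and Mag passed as lower; Egr3 was -0.29 and Sox8 -0.16, and these genes also changed sign without single mice (-0.17 to 0.31 and -0.21 to 0.34). Rps6ka1 was 0.0700 with library totals. The cause of these changes was not tested. Same-numbered mice had correlations of their deviations from the group means of -0.15 to 0.35, and 2 of 6 pairs exceeded 0.1, and the numbers are therefore not treated as pairing mice; a hint of pairing is limited to those 2 numbers, whose WT library correlated best with its own number. Mag, with 18 to 36 counts in a library, and S100b, with 13 to 68, rest on few reads.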

Other observations

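Myelin is rich in cholesterol and very long chain sphingolipids, and 13 enzymes or regulators of their synthesis were read beside the sheath genes. Of 12 tested, 4 were higher and 1 lower, with a median log2 fold change of 0.23, beside 25.0% higher and 23.4% lower over all genes. Srebf2, the master regulator of cholesterol synthesis, rose from 20.8 ± 1.92 to 28.2 ± 5.19 CPM (SD, n = 6 each), by 0.44 ± 0.10 (SE, log2; edgeR adjusted p 0.00337), and was 0.32 at its lowest when single mice were left out. Fdft1, which makes squalene, fell by 0.62 (adjusted p 0.00108). Cers2 and Elovl1, which make very long chain ceramides and their fatty acids, rose by 0.23 and 0.47. With library totals, Scd2 and Elovl6 passed as higher too. Muscle fibres and other cells of the muscle use these enzymes too, and their share of the signal was not tested.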
